A study of Homo sapiens with 8 samples.

Results

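The genes described here are 10 members of the signalling pathways of transforming growth factor beta (TGF-beta), activin and bone morphogenetic proteins (BMPs). They comprise the ligands TGFB1, TGFB2, INHBA and BMP4, the receptors TGFBR1 and TGFBR2, the feedback inhibitors SMAD7 and SKIL, and the target genes TGFBI and ID1. They were taken by name from an expression table of 28395 genes, and all 10 were among the 14040 genes that passed a filter on low values and were tested. The table came from 8 libraries of polyadenylated RNA from A-498 cells, a long-established line from a human kidney cancer, in a study of ANXA4, the gene of the calcium-dependent membrane-binding protein annexin A4. There were 4 derived lines with 2 replicate libraries each. The lines called control 1 and control 2 here were labelled as wild type and each carried its own non-targeting single guide RNA. The lines labelled KO 1 and KO 2 were described as ANXA4 knockouts and each carried its own guide RNA against ANXA4. KO 1 and KO 2 are used below as the names of the labels only. Because each guide was represented by a single line, a guide and a line cannot be told apart, and the labels did not say whether a line was a clone. All lines were grown for 24 hours in medium with 10% fetal calf serum and were not confluent at harvest.

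TGF-beta and activin ligands bind paired type II and type I receptor kinases, which phosphorylate SMAD2 and SMAD3; BMPs act through related receptors on SMAD1, SMAD5 and SMAD9. The activated SMADs enter the nucleus with SMAD4 and switch on target genes, among them the inhibitors SMAD7 and SKIL, which damp the same pathway. In kidney epithelium the TGF-beta branch is known for matrix production, fibrosis and epithelial-to-mesenchymal change.

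ANXA4, the targeted gene, was at 2821 and 3614 in control 1, 3858 and 6773 in control 2, 236 and 234 in the line labelled KO 1, and 3433 and 4142 in the line labelled KO 2 (normalized read counts, replicate 1 then replicate 2). Its RNA was thus far lower in the line labelled KO 1, with a log2 difference from the control lines of -4.10 (SE 0.22, limma adjusted p = 5.88e-05). For KO 2 the difference was -0.10 (SE 0.22, limma adjusted p = 0.818), so the RNA gave no check of that label, and a knockout by small edits need not lower the RNA. The libraries held 15784890 to 22631588 reads, and 13290 to 13781 genes had at least 10 reads. All 8 listed renal epithelial markers were detected, with a summed level of 26539 to 33333 in the control libraries and 40246 to 48565 in the KO-labelled libraries; PAX8, KRT8 and KRT18 were high, while CA9 and EPCAM were at most 24.8 and 9.46. Of 7 fibroblast and pericyte markers, 3 exceeded 3 reads in a library, with sums of 9.46 to 29.1 in the control and 6.26 to 13.3 in the KO-labelled libraries and LUM at 0. Of 5 endothelial markers 2 did, mostly TEK, with sums of 30.1 to 73.8 and 23.8 to 53.9 and CDH5 at 0. Of 6 immune markers 3 did, mostly ITGAM, with sums of 34.3 to 37.0 and 68.5 to 90.0 and CD3E at 0. The renal and immune sums thus moved with the KO label, and their part in the results below was not tested. In a bulk library, fewer cells of a type and less RNA per cell cannot be told apart.

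The members differed between lines, and not only along the labels. INHBA was high in control 1 and 3.09- to 5.85-fold lower in the other 3 lines, TGFB2 was highest and TGFB1 lowest in control 1, and TGFBI was lower in every KO-labelled library than in every control library. TGFBR1 and SKIL were low in the line labelled KO 2 and not in the line labelled KO 1. In the model with 1 mean per line, limma called 1 member lower in the line labelled KO 1 than in the 2 control lines (TGFBI), beside 3.18% of all tested genes called lower, 3.82% higher and 7.01% in either direction. In the line labelled KO 2 it called 4 members lower (INHBA, SKIL, TGFBI and TGFBR1) and none higher, beside 6.67% of genes lower, 4.54% higher and 11.2% in either direction. Both comparisons share the 4 control libraries, so they are not independent of each other. The 2 control lines differed in 1 member (TGFB1, higher in control 2; 1.05% of genes were called higher, 1.08% lower and 2.13% in either direction), and the 2 KO-labelled lines in 2 (SKIL and TGFBR1, lower in KO 2; 4.53% lower, 2.41% higher and 6.94% in either direction). Here a call is an adjusted p under 0.05 over all 14040 genes, and a log2 difference is on the scale of log2(normalized read count + 1), which understates the change of genes with low values.

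The replicate numbers shared a component across lines, and more members passed when that number entered as a block: 4 in the line labelled KO 1 (24.4% of all genes), 8 in the line labelled KO 2 (27.4%), 4 when the control lines were compared (12.5%) and 4 when the KO-labelled lines were compared (24.5%). The blocked values are given beside each member they changed. The labels do not say that replicates were separate cultures, so p-values measure only the spread between these libraries, which may be technical. The comparisons of lines take no account of variation between lines of 1 genotype.

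**Figure D1:**
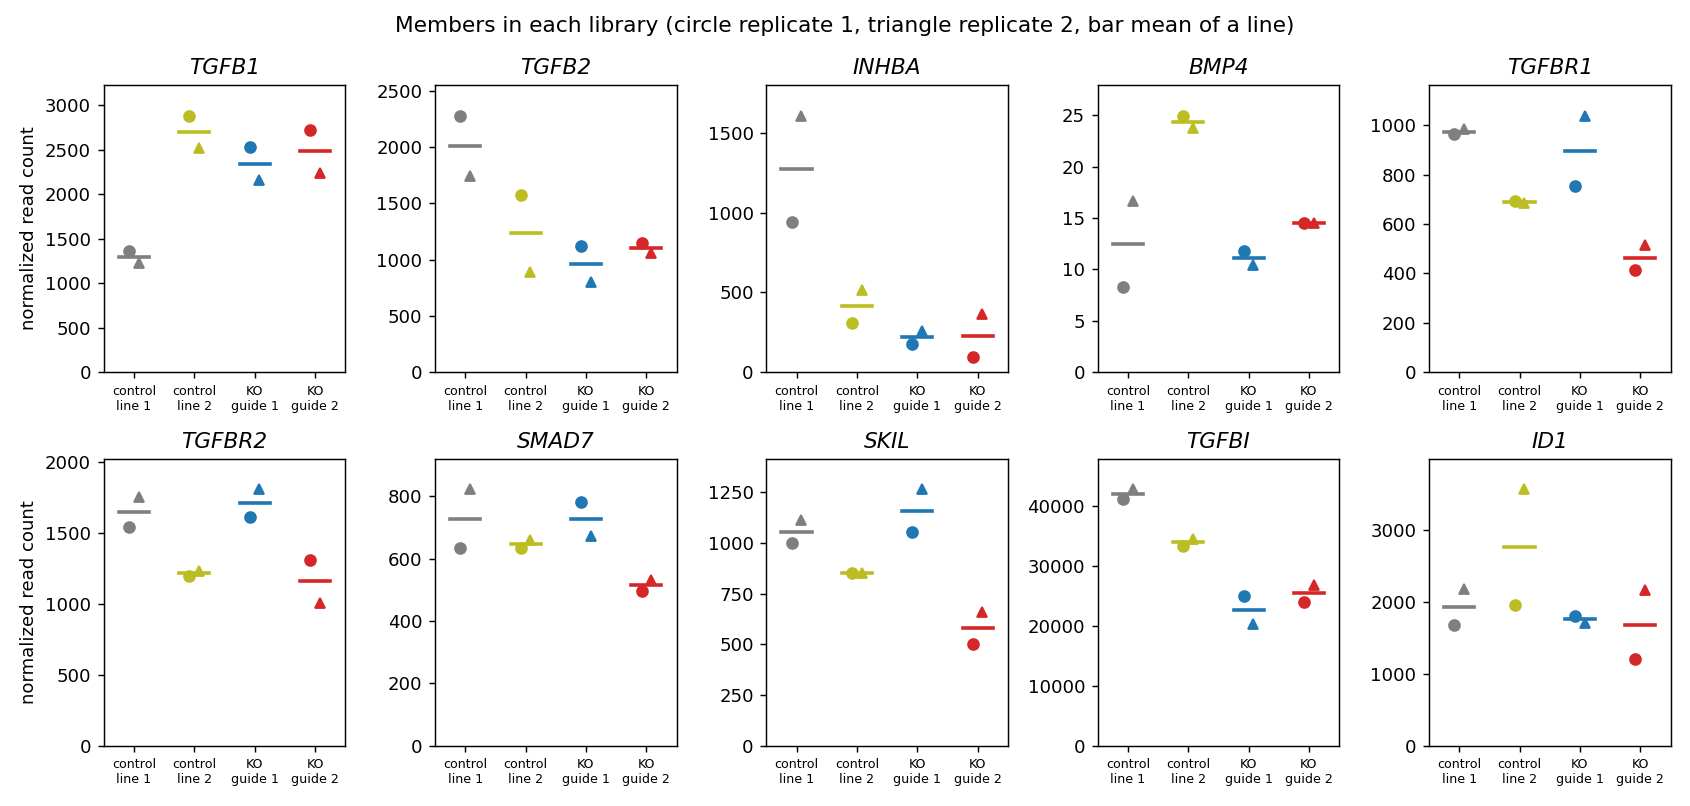
Normalized read counts of the 10 members in each of the 8 libraries (y axes linear from 0, 1 panel per gene; circles replicate 1, triangles replicate 2, bars the mean of a line). INHBA and TGFB2 are highest in control 1, TGFB1 is lowest there, and TGFBI lies between 20276 and 26890.5 in the 4 KO-labelled libraries and between 33389 and 42759.5 in the 4 control libraries.

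The stretch just before the transcription start is shown for TGFB1, TGFB2, INHBA and TGFBI, the members that set control 1 or the KO-labelled lines apart in the values below. The sequences are from RefSeq (GRCh38.p14), read 5′ to 3′ on the gene's strand, lie within 250 bases before a RefSeq start and leave out exons of protein-coding genes. TGFB1 is from chr19:41353923-41354168 (minus strand), TGFB2 from chr1:218345086-218345335 (plus), INHBA from chr7:41703109-41703340 (minus) and TGFBI from chr5:136028738-136028894 (plus). Gene positions below are from the same build. Capitals mark CAGAC or its complement GTCTG, the short element that SMAD3 and SMAD4 are known to bind.
TGFB1: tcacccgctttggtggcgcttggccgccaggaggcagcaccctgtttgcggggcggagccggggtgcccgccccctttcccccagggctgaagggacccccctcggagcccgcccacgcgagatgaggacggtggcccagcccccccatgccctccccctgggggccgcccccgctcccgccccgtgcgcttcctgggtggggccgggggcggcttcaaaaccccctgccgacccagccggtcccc
TGFB2: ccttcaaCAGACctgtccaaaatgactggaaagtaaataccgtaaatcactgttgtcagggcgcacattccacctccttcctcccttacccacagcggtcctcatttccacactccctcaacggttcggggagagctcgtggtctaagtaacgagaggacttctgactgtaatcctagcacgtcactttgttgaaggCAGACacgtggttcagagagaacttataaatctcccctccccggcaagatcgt
INHBA: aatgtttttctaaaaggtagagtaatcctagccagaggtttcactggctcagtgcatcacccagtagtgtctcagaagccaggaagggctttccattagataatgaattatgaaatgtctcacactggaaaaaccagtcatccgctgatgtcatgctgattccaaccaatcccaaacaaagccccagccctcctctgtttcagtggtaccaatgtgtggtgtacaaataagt
TGFBI: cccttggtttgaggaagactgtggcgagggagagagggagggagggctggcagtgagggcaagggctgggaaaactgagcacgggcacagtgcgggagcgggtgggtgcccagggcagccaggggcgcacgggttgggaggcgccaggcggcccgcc
The stretches are 157 to 250 bases long, so motifs were counted in the full windows of 250 bases before the same starts. The TGFB2 window held CAGAC at 2 places, starting at -243 and -53 from the transcription start, and the other 3 windows held none. Over 35116 windows of 250 bases before RefSeq starts of 27305 genes, 38.0% held CAGAC on either strand and 8.84% held at least 2 copies, so the element is common. The TGFB2 window and the INHBA window each held 1 TATAAA, found in 10.7% of windows; that of INHBA lies in the bases not printed. Neither the palindrome GTCTAGAC nor the AP-1 type motif TGANTCA was found in the 4 windows; they occurred in 0.182% and 6.57% of all windows. Base composition differed between the ligands: the window was 76.8% G and C for TGFB1, 50.4% for TGFB2 and 42.8% for INHBA, beside a median of 58.0% over all windows. A match or its absence describes only these letters.

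TGFB1 (chr19:41330323-41353922) encodes the most widely expressed TGF-beta ligand, secreted in a latent form. Its normalized read counts were 1356 and 1224 in control 1, 2881 and 2513 in control 2, 2532 and 2154 in the line labelled KO 1, and 2723 and 2242 in the line labelled KO 2. Both control 1 libraries lay below all 6 others, and the 3 other lines overlapped. Control 2, at 2697 ± 259.9 (SD, n = 2), was 2.09-fold above control 1, at 1290.1 ± 93.4, a log2 difference of 1.06 (SE 0.15, limma adjusted p = 0.0147). The lines labelled KO 1 (2343 ± 267) and KO 2 (2482 ± 340.4) both lay between the control lines. Against the mean of the controls the log2 differences were 0.33 (SE 0.13, limma adjusted p = 0.179) and 0.41 (SE 0.13, limma adjusted p = 0.0877), and with the replicate block the limma adjusted p was 0.019 and 0.00502. Leaving out any of the 4 control libraries ended the call between the control lines (limma adjusted p 0.0988 and 0.167 without control 1 replicates 1 and 2, 0.0733 and 0.053 without those of control 2). An exon of TGFB1 overlaps an exon of HNRNPUL1 on the opposite strand by 118 bases in the annotation used, and HNRNPUL1 was at 5465 to 7715; strand use in counting was not given in the sources used here, and reads from that stretch cannot be assigned.

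TGFB2 (chr1:218345336-218444619), the ligand that needs the co-receptor betaglycan for efficient binding, ran the other way. In normalized read counts it was at 2280.2 and 1740.0 in control 1, 1577 and 893 in control 2, 1125 and 799 in the line labelled KO 1, and 1145 and 1057 in the line labelled KO 2. Both control 1 libraries exceeded all others, and replicate 1 exceeded replicate 2 in every line. The line means were 2010.1 ± 382 in control 1, 1235 ± 484 in control 2, 962 ± 231 in KO 1 and 1101 ± 61.8 in KO 2 (SD, n = 2). No line comparison passed: the log2 difference was -0.70 (SE 0.24, limma adjusted p = 0.116) for KO 1, -0.48 (SE 0.24, limma adjusted p = 0.235) for KO 2 and -0.75 (SE 0.27, limma adjusted p = 0.22) for control 2 minus control 1. With the replicate block the same differences had limma adjusted p of 0.00205, 0.0137 and 0.00621. Without control 2 replicate 2, the lower of that line, the KO 1 difference was -0.90 (limma adjusted p = 0.0371). On recovered reads DESeq2 called TGFB2 lower in KO 1 (adjusted p = 0.0325). TGFB2 and TGFBI were the 2 members DESeq2 called there, beside 10.3% of all genes.

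Set against each other within a library, the 2 ligands split control 1 from the rest. The ratio of TGFB1 to TGFB2 normalized read counts, not corrected for gene length, was 0.595 and 0.704 in control 1. It was 1.83 and 2.81 in control 2, 2.25 and 2.70 in KO 1 and 2.38 and 2.12 in KO 2. The 6 libraries outside control 1 overlapped in this ratio whatever their label. These ratios are a description with no test.

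**Figure D2:**
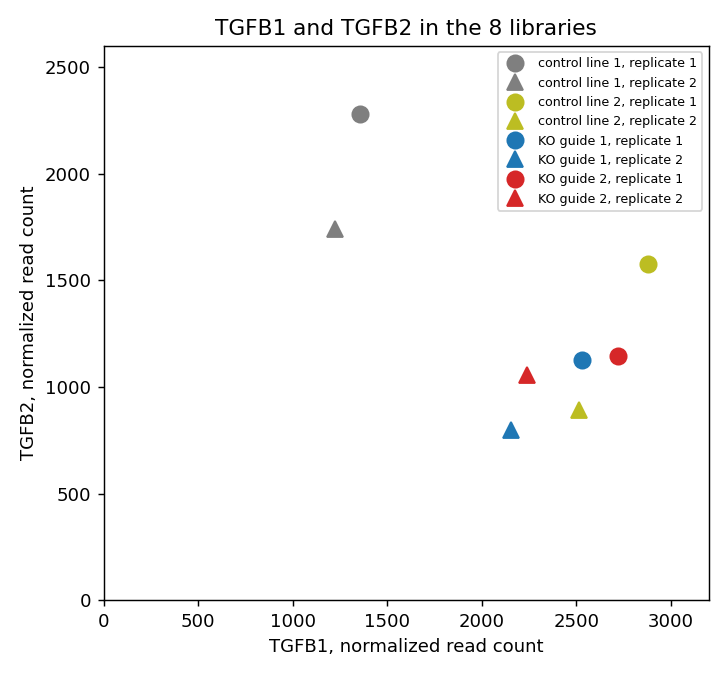
TGFB2 (y axis) against TGFB1 (x axis), both in normalized read counts on linear axes from 0, with 1 point per library (colour gives the line, circle replicate 1 and triangle replicate 2). The 2 control 1 libraries stand at the upper left with TGFB1 at 1224 and 1356, and the other 6 libraries, control 2 among them, stand together with TGFB1 between 2154 and 2881.

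INHBA (chr7:41685114-41705406) encodes the subunit of activin A, a ligand that signals through SMAD2 and SMAD3, and it had the widest range of line means of the 10 members. The libraries gave normalized read counts of 943 and 1610.0 in control 1, 309.7 and 517 in control 2, 177 and 259 in the line labelled KO 1, and 94.1 and 363 in the line labelled KO 2. Both control 1 libraries lay above all others, and the control 2 libraries overlapped with those labelled KO 2, whose replicates differed widely. The mean of the control lines was 3.87-fold that of KO 1 and 3.69-fold that of KO 2, and control 1 was 3.09-fold above control 2. INHBA was called lower in the line labelled KO 2, with a log2 difference of -1.92 (SE 0.49, limma adjusted p = 0.0374), and in KO 1 it was -1.71 (SE 0.49, limma adjusted p = 0.0693). Between the control lines the difference was -1.62 (SE 0.56, limma adjusted p = 0.191), and KO 2 minus KO 1 was -0.21 (SE 0.56, limma adjusted p = 0.85). With the replicate block, the limma adjusted p was 0.000236 for KO 1 and 0.00188 between the control lines. The KO 2 call was lost in 6 of the 8 fits without 1 library (limma adjusted p 0.0614 and 0.105 without control 1 replicates 1 and 2, 0.0703 without control 2 replicate 2, 0.061 and 0.0606 without KO 1 replicates 1 and 2, and 0.151 without KO 2 replicate 1, where the difference was -0.95; without KO 2 replicate 2 it was -2.89). On recovered reads the adjusted p of KO 2 was 0.0635 in edgeR and 0.0714 in DESeq2; without either KO 2 library, KO 1 passed at limma adjusted p of 0.0124 and 0.0127 and control 2 minus control 1 at 0.0427 and 0.0439.

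The paralogue INHBB, which forms activin B, was not called in any of the 5 comparisons of lines or arms without the replicate block. With the block it was called lower in KO 1 (limma adjusted p = 0.0152), in KO 2 (limma adjusted p = 0.000112) and in KO 2 than in KO 1 (limma adjusted p = 0.0164). INHBB was at 1558 and 1264 in control 1, 1694 and 1040.1 in control 2, 1374 and 695 in the line labelled KO 1, and 844 and 529.9 in the line labelled KO 2. The ratio of INHBA to INHBB, not corrected for length, was 0.605 and 1.27 in control 1, 0.183 and 0.497 in control 2, 0.129 and 0.373 in KO 1, and 0.112 and 0.686 in KO 2. Within every line the ratio was higher in replicate 2, where INHBA was higher and INHBB lower.

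BMP4 (chr14:53949736-53956891), a BMP ligand of kidney development, was near the limit of detection, with 9 to 29 reads per library. Scaled to normalized read counts, BMP4 was at 8.27 and 16.6 in control 1, 24.95 and 23.8 in control 2, 11.7 and 10.4 in the line labelled KO 1, and 14.5 and 14.5 in the line labelled KO 2. Control 2 stood above the 6 other libraries, and control 1 overlapped with both KO-labelled lines. No line comparison passed, the log2 difference being -0.58 (SE 0.36, limma adjusted p = 0.362) for KO 1, -0.22 (SE 0.36, limma adjusted p = 0.755) for KO 2 and 0.99 (SE 0.42, limma adjusted p = 0.292) for control 2 minus control 1. These differences were not detectable at this depth.

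TGFBR1 (chr9:99103647-99154192) encodes the type I receptor kinase of TGF-beta, also called ALK5. It was at normalized read counts of 964 and 987 in control 1, 693 and 687 in control 2, 756 and 1039 in the line labelled KO 1, and 413 and 515 in the line labelled KO 2. The libraries labelled KO 2 were the 2 lowest, and those of control 1 and KO 1 overlapped at the top. KO 1 (898 ± 200.2, SD, n = 2) was 1.93-fold above KO 2 (464 ± 72.7), and the mean of the control lines was 1.79-fold above KO 2. TGFBR1 was called lower in the line labelled KO 2 than in the controls, with a log2 difference of -0.83 (SE 0.16, limma adjusted p = 0.0128), and lower than in KO 1, with a log2 difference of -0.94 (SE 0.18, limma adjusted p = 0.0222). In KO 1 the difference from the controls was 0.11 (SE 0.16, limma adjusted p = 0.707). Control 2 minus control 1 was -0.50 (SE 0.18, limma adjusted p = 0.216), with a limma adjusted p of 0.0326 under the replicate block. The call against the controls was lost without KO 2 replicate 1 (limma adjusted p = 0.0682). The call between the KO-labelled lines was lost without KO 2 replicate 1 (limma adjusted p = 0.0566) or without KO 1 replicate 2 (limma adjusted p = 0.174).

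TGFBR2 (chr3:30606356-30694142), the type II receptor that binds the ligand and activates TGFBR1, varied less. TGFBR2 was at normalized read counts of 1545 and 1757 in control 1, 1199 and 1234 in control 2, 1617 and 1809 in the line labelled KO 1, and 1313 and 1007 in the line labelled KO 2. KO 1 and control 1 overlapped at the top, and control 2 and KO 2 overlapped below them. The log2 difference was 0.27 (SE 0.14, limma adjusted p = 0.269) for KO 1, -0.30 (SE 0.14, limma adjusted p = 0.204) for KO 2 and -0.57 (SE 0.16, limma adjusted p = 0.0661) for KO 2 minus KO 1. The last of these had a limma adjusted p of 0.0108 with the replicate block and of 0.0352 without KO 2 replicate 1, where it was -0.76, and an adjusted p of 0.0387 in DESeq2 on recovered reads. The ratio of TGFBR1 to TGFBR2, not corrected for length, was 0.314 and 0.512 in KO 2 and lay between 0.468 and 0.624 in the other 6 libraries.

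SKIL (chr3:170357715-170396849) encodes SnoN, a co-repressor that binds SMADs and is itself induced by the pathway. SKIL was at normalized read counts of 998 and 1115 in control 1, 852 and 851 in control 2, 1052 and 1264 in the line labelled KO 1, and 503 and 659 in the line labelled KO 2. As with TGFBR1, both libraries labelled KO 2 lay below all others, and those labelled KO 1 overlapped with control 1 at the top. KO 1 (1158 ± 150.1, SD, n = 2) was 1.99-fold above KO 2 (581 ± 111). SKIL was called lower in KO 2 than in the controls, with a log2 difference of -0.72 (SE 0.15, limma adjusted p = 0.0164), and lower than in KO 1, with a log2 difference of -1.0 (SE 0.17, limma adjusted p = 0.0141). In KO 1 the difference from the controls was 0.28 (SE 0.15, limma adjusted p = 0.279). The call against the controls was lost without control 1 replicate 2 (limma adjusted p = 0.0608) or KO 2 replicate 1 (limma adjusted p = 0.0831), and that between the KO-labelled lines without KO 1 replicate 1 (limma adjusted p = 0.0586) or replicate 2 (limma adjusted p = 0.141).

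SMAD7 (chr18:48919853-48950965), the inhibitory SMAD that targets the type I receptor for degradation, had the same order of lines. SMAD7 was at normalized read counts of 633 and 822 in control 1, 634 and 658 in control 2, 783 and 673 in the line labelled KO 1, and 496 and 531 in the line labelled KO 2. The 2 libraries labelled KO 2 were the lowest, and the other 3 lines overlapped. The log2 difference was -0.41 (SE 0.14, limma adjusted p = 0.103) in KO 2, 0.09 (SE 0.14, limma adjusted p = 0.75) in KO 1 and -0.50 (SE 0.16, limma adjusted p = 0.106) for KO 2 minus KO 1. With the replicate block the limma adjusted p was 0.0264 for KO 2 and 0.0236 for KO 2 minus KO 1.

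TGFBI (chr5:136028988-136063818) encodes a secreted matrix protein, named for its induction by TGF-beta. TGFBI was at normalized read counts of 41129 and 42759.5 in control 1, 33389 and 34501 in control 2, 24952 and 20276 in the line labelled KO 1, and 23924 and 26891 in the line labelled KO 2. TGFBI alone of the 10 members had all 4 KO-labelled libraries on 1 side of the 4 control libraries, beside 10.6% of all tested genes (5.51% lower and 5.11% higher). The line means were 41944 in control 1, 33945 in control 2, 22614 in KO 1 and 25407 in KO 2. The mean was 37945 ± 4688 over the control libraries and 24011 ± 2777 over the KO-labelled libraries (SD over 4 libraries). The 4 libraries of an arm came from 2 lines, so they are not 4 independent units. TGFBI fell in the line labelled KO 1, 1.68-fold below the mean of the controls with a log2 difference of -0.75 (SE 0.14, limma adjusted p = 0.0193). It also fell in KO 2, 1.49-fold below with -0.57 (SE 0.14, limma adjusted p = 0.0345). The KO-labelled lines overlapped, with a difference of 0.17 (SE 0.16, limma adjusted p = 0.553), and control 2 minus control 1 was -0.31 (SE 0.16, limma adjusted p = 0.443). The KO 1 call was lost in 5 of the 8 fits without 1 library (limma adjusted p 0.0605 and 0.0743 without control 1 replicates 1 and 2, 0.0504 without control 2 replicate 2, 0.0836 and 0.213 without KO 1 replicates 1 and 2). The KO 2 call was lost in all 8 (limma adjusted p 0.055 to 0.129, the highest without KO 2 replicate 1) and with no filter on low values (limma adjusted p = 0.0828).

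ID1 (chr20:31605289-31606510), an inhibitor of basic helix-loop-helix factors and the classic direct target of BMP signalling, did not separate the lines. ID1 was at normalized read counts of 1675 and 2176 in control 1, 1951 and 3563 in control 2, 1801 and 1712 in the line labelled KO 1, and 1199.7 and 2162 in the line labelled KO 2. Neighbouring lines overlapped throughout, and control 2 replicate 2 was the highest library. The log2 difference was -0.35 (SE 0.28, limma adjusted p = 0.479) for KO 1 and -0.48 (SE 0.28, limma adjusted p = 0.324) for KO 2, where the limma adjusted p with the replicate block was 0.0451.

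**Figure D3:**
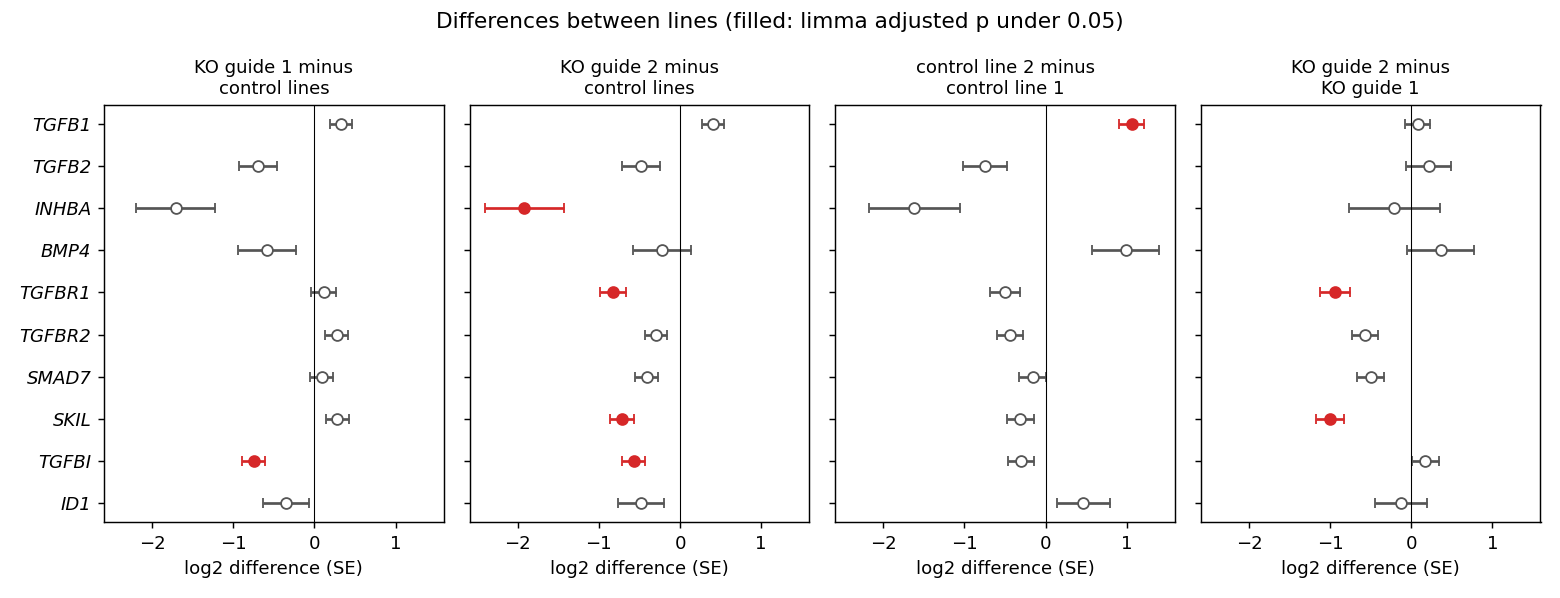
Log2 differences of the 10 members (points, with bars of 1 SE) in 4 comparisons of lines, from the model with 1 mean per line; filled red points have a limma adjusted p under 0.05. INHBA, TGFB2, TGFBI, BMP4 and ID1 lie below 0 in both KO-labelled lines. INHBA, TGFB2 and TGFBI also lie below 0 between the control lines, as do TGFBR1, TGFBR2, SKIL and SMAD7. In the last panel TGFBR1 and SKIL are filled and below 0, and TGFBR2, SMAD7, INHBA and ID1 lie below 0 unfilled.

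With all KO-labelled libraries set against all control libraries and the line kept as a random effect, limma called none of the 10 members, beside 0.235% of all genes (0.128% higher and 0.107% lower), and none with the replicate block (0.264% of all genes). The largest differences were INHBA, -1.81 (SE 0.62, limma adjusted p = 0.284), TGFBI, -0.66 (SE 0.17, limma adjusted p = 0.17), and TGFB2, -0.59 (SE 0.30, limma adjusted p = 0.503). TGFB1 was at 0.37 (SE 0.27, limma adjusted p = 0.675), and TGFBR2 at -0.01 (SE 0.22, limma adjusted p = 0.992). The median over the 10 members was -0.38, beside 0.00 over all genes tested, and 9 of 10 lay below 0, among them TGFBR2 at -0.01. Tests that fitted a mean for each line, and so took no account of variation between lines, gave more calls. On recovered reads, edgeR called INHBA and TGFBI (2 members, beside 10.5% of all genes). DESeq2 called these with TGFB1 and TGFB2 (4 members, beside 12.6% of all genes). Against the controls the members' median was -0.13 in KO 1 and -0.48 in KO 2, beside 0.00 and 0.01 over all genes. In KO 1 only 5 of 10 members lay below 0, and in KO 2 9 of 10 did. The members were chosen with earlier results of these data known, so these medians and counts are a description.

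The replicates of all 4 lines differed in the same direction for some members. INHBA was higher in replicate 2 than in replicate 1 of every line, with a log2 difference of 1.00 (SE 0.18, limma adjusted p = 0.00475) in a model with line and replicate. ID1 was called higher in replicate 2, 0.51 (SE 0.13, limma adjusted p = 0.0231), though not in the line labelled KO 1, and TGFB2 lower, -0.45 (SE 0.10, limma adjusted p = 0.0126). These 3 of 10 members stand beside 17.6% of all genes called between the replicates (8.97% higher and 8.62% lower in replicate 2). Over all genes, 20.2% were higher and 19.3% lower in replicate 2 of every line. The replicate numbers are only those of the labels, and what they stand for was not given in the sources used here. TGFB2 lost its call without either control 2 library (limma adjusted p = 0.0907 and 0.0899), and ID1 without either library of control 2 (limma adjusted p = 0.148 and 0.15) or of KO 2 (limma adjusted p = 0.118 for each).

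**Figure D4:**
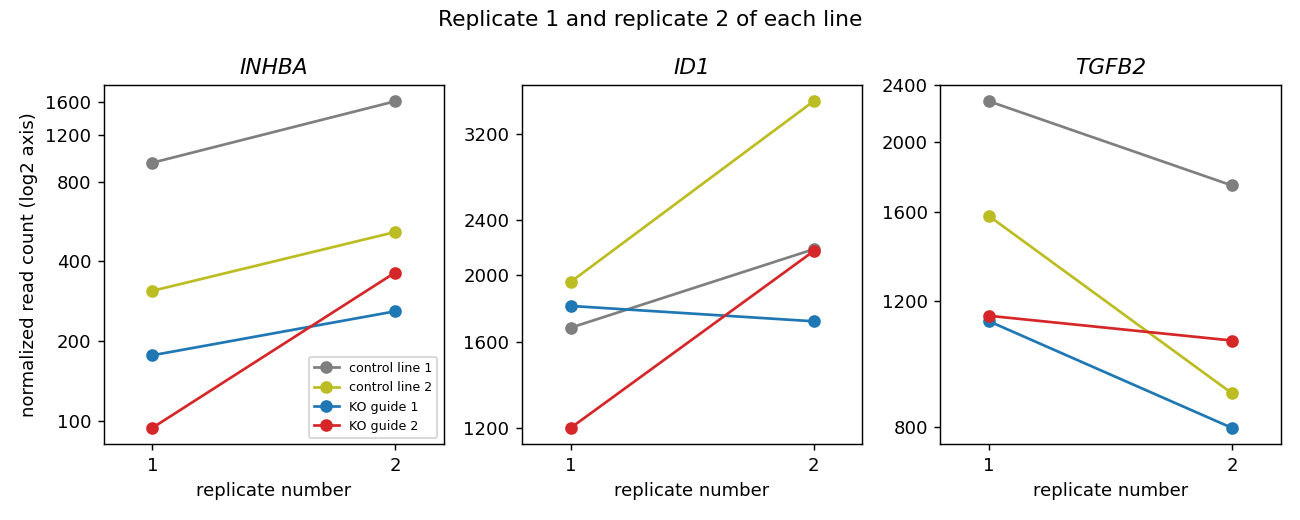
Normalized read counts (log2 y axis) of INHBA, ID1 and TGFB2 in replicate 1 and replicate 2, with a line joining the replicates of each cell line. INHBA is higher and TGFB2 lower in replicate 2 of all 4 lines, and ID1 is higher in 3 of 4.

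For the 3 members with the widest range of line means, the genes with the most similar pattern over the 8 libraries were identified among 11237 tested genes with a mean of at least 50. Likeness was the mean absolute difference of log2 values centred on each gene's mean. For INHBA these were MPP4 (0.377) and CPED1 (0.392), beside a median over genes of 1.01. MPP4 was at 519 and 660.4 in control 1, 305 and 397 in control 2, 127 and 184 in the line labelled KO 1, and 102 and 179 in the line labelled KO 2. For TGFBR1 they were NOTCH2 (0.0765), a receptor of the Notch pathway, and QSOX2 (0.0785), beside a median of 0.414. NOTCH2 was at 6254 and 6742 in control 1, 4526 and 3916 in control 2, 5140.3 and 6898 in the line labelled KO 1, and 3264 and 3449 in the line labelled KO 2, so it too was lowest in the libraries labelled KO 2. For BMP4 they were ZNF232-AS1 (0.192) and EVA1B (0.201), beside a median of 0.464, but BMP4 itself had few reads.

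A list of 103 other genes of the pathway was examined in the same fits, and 79 passed the filter. The list was chosen with earlier results of these data known, so its counts beside the shares of all genes are a description. In the line labelled KO 1, 17 of 79 were called (7.01% of all genes), 6 higher and 11 lower, with a median log2 difference of -0.05. In the line labelled KO 2, 20 of 79 were called (11.2% of all genes), 3 higher and 17 lower, with a median of -0.27. The 2 control lines differed in 2 (FN1 and SMAD9, both lower in control 2; 2.13% of all genes were called) and the KO-labelled lines in 9 (6.94% of all genes). Over all KO-labelled against all control libraries, 1 of 79 was called, THBS1 (0.235% of all genes). With the replicate block the counts were 33 in KO 1 (24.4% of all genes), 33 in KO 2 (27.4%), 16 between the control lines (12.5%), 31 between the KO-labelled lines (24.5%) and 1 over both arms (0.264%). All 4 KO-labelled libraries lay below all 4 control libraries for 13 of the 79 genes (5.51% of all genes) and above them for 3 (5.11%). These counts include LRRC32 and CHRD, each of which passed the filter on low values only through libraries of the group where it was high. INHBE, GDF9 and FST also reached the filter's value only in libraries of 1 line, and none of them was called.

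Among the TGF-beta targets, 7 of 16 tested genes were called in KO 1 (6 lower, 1 higher), beside 7.01% of all genes, and 8 of 16 in KO 2 (6 lower, 2 higher), beside 11.2%. CCN2, encoding connective tissue growth factor, fell in both, with log2 differences of -1.18 (SE 0.16, limma adjusted p = 0.00434) and -0.75 (SE 0.16, limma adjusted p = 0.0176). COL1A1, the alpha chain of type I collagen, also fell in both, with log2 differences of -2.28 (SE 0.22, limma adjusted p = 0.000968) and -1.03 (SE 0.22, limma adjusted p = 0.018). The line means of COL1A1 were 1218 ± 269.5 and 699 ± 214 in the controls beside 186 ± 12.8 and 447 ± 90.5 in KO 1 and KO 2 (SD, n = 2). COL1A1 was also called lower in control 2 than in control 1 under the replicate block. SNAI2, a transcription factor of epithelial-to-mesenchymal change, fell in the line labelled KO 2, with a log2 difference of -1.87 (SE 0.29, limma adjusted p = 0.00533). In KO 1 its log2 difference was -1.03 (SE 0.29, limma adjusted p = 0.0664), with a limma adjusted p of 0.00478 under the replicate block. Under that block SNAI2 was also called lower in control 2 than in control 1. It was at 461 and 472 in control 1, 252 and 116 in control 2, 161 and 118 in KO 1, and 75.5 and 77.3 in KO 2. KO 1 thus overlapped control 2. ANGPTL4, a secreted inhibitor of lipoprotein lipase, rose in KO 1, with a log2 difference of 2.52 (SE 0.55, limma adjusted p = 0.0312). TAGLN, an actin-binding protein, rose in KO 2, with a log2 difference of 1.44 (SE 0.37, limma adjusted p = 0.0401). It had only 11 to 56 reads per library, and its mean in control 1 was 2.21-fold that in control 2. TGFB1I1, encoding the focal adhesion protein Hic-5, fell in KO 1, with a log2 difference of -0.92 (SE 0.12, limma adjusted p = 0.00385), and was higher in KO 2 than in KO 1, with a log2 difference of 1.26 (SE 0.14, limma adjusted p = 0.00304). The called targets thus moved in both directions. CCN2 lost its call in KO 1 without KO 1 replicate 2 (limma adjusted p = 0.0693) and in KO 2 without either control 1 replicate or KO 2 replicate 2 (limma adjusted p 0.0519 to 0.0954). COL1A1 lost its call in KO 2 without control 1 replicate 2 or KO 2 replicate 1 (limma adjusted p 0.0602 to 0.0966). ANGPTL4 lost its call without control 1 replicate 1, control 2 replicate 1 or either KO 1 replicate (limma adjusted p 0.0506 to 0.256). TAGLN lost its call without either control 1 replicate, control 2 replicate 1, KO 1 replicate 1 or either KO 2 replicate (limma adjusted p 0.0521 to 0.202), and TGFB1I1 in KO 1 without either KO 1 replicate (limma adjusted p 0.0534 to 0.0629).

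FN1, the fibronectin gene, shows how far the control lines stood apart. In normalized read counts FN1 was at 17998 and 20159 in control 1, 521 and 434 in control 2, 794 and 896 in the line labelled KO 1, and 6744 and 5270.4 in the line labelled KO 2. Control 1 was 39.9-fold above control 2, a log2 difference of -5.32 (SE 0.17, limma adjusted p = 1.84e-06), with KO 1 close to control 2 and KO 2 between the controls. On the log2 scale FN1 was lower than the controls in KO 1, -1.84 (SE 0.14, limma adjusted p = 0.000477), and higher in KO 2, 0.98 (SE 0.14, limma adjusted p = 0.00435), but its linear mean in KO 2 was 1.63-fold below that of the controls. The sign against the controls therefore depended on the scale on which the 2 unlike control lines were averaged.

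The next group holds the genes listed under the latent TGF-beta complex and its activation. THBS1, encoding thrombospondin 1, an activator of latent TGF-beta, was at 4684 and 3996 in control 1, 4191 and 3399 in control 2, 1709 and 1329.8 in the line labelled KO 1, and 1972 and 2014 in the line labelled KO 2. The KO-labelled libraries lay below all control libraries, and the log2 difference was -1.42 (SE 0.15, limma adjusted p = 0.00145) in KO 1, -1.02 (SE 0.15, limma adjusted p = 0.00417) in KO 2 and -1.22 (SE 0.19, limma adjusted p = 0.0245) over both arms. ITGB6, a subunit of the epithelial integrin that activates latent TGF-beta, fell, with a log2 difference of -1.11 (SE 0.17, limma adjusted p = 0.00849) in KO 1 and -1.64 (SE 0.17, limma adjusted p = 0.00138) in KO 2. Its mean in control 1 was 1.52-fold that in control 2, a difference that was called under the replicate block. LTBP2, a latent TGF-beta binding protein family member, fell in KO 2, with a log2 difference of -0.84 (SE 0.15, limma adjusted p = 0.0109). LRRC32, which anchors latent TGF-beta at the cell surface, had 25 and 11 reads in the libraries labelled KO 1 and 1 to 4 in the other 6. It passed the filter only through those 2 libraries, so its difference is a description with no test. In all, 2 of 10 genes of this group were called lower in KO 1 (ITGB6 and THBS1), beside 3.18% of all genes called lower. LRRC32 was also called there but is left out of this count, having no test. In KO 2, 5 of 10 were called lower, beside 6.67% of all genes, and none higher. THBS1 lost its call over both arms without either control 1 replicate, control 2 replicate 1 or KO 2 replicate 1 (limma adjusted p 0.0657 to 0.141), and ITGB6 in KO 1 without KO 1 replicate 2 (limma adjusted p = 0.107).

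Of the other ligands, BMP2 fell in KO 1, with a log2 difference of -0.94 (SE 0.18, limma adjusted p = 0.0187), and was higher in KO 2 than in KO 1, with a log2 difference of 1.10 (SE 0.20, limma adjusted p = 0.0197). BMP6 fell in KO 2, with a log2 difference of -1.81 (SE 0.20, limma adjusted p = 0.00173), from 102 ± 2.13 and 110.1 ± 9.84 in the control lines to 29.5 ± 0.722 (SD, n = 2). BMP8B fell there as well, with a log2 difference of -1.42 (SE 0.27, limma adjusted p = 0.0123). Both were also lower in KO 2 than in KO 1, with log2 differences of -1.67 (SE 0.23, limma adjusted p = 0.00714) and -1.37 (SE 0.31, limma adjusted p = 0.0361). In this group, 2 of 12 tested genes were called in KO 1 (BMP2 lower and GDF15 higher), beside 7.01% of all genes. In KO 2, 3 of 12 were called (BMP6 and BMP8B lower and GDF15 higher), beside 11.2%. GDF15 was 1 of the 3 pathway genes with all 4 KO-labelled libraries above all 4 control libraries. The receptor group had 1 of 11 called in each line, near the share of all genes (7.01% and 11.2%). ACVRL1, the type I receptor ALK1, rose in KO 1, with a log2 difference of 1.84 (SE 0.32, limma adjusted p = 0.0144) and was lower in KO 2 than in KO 1, with a log2 difference of -1.61 (SE 0.37, limma adjusted p = 0.0385). It had only 7 to 63 reads per library, and its mean in control 1 was 2.49-fold that in control 2. The other called receptor was BMPR2, a type II receptor of BMPs, lower in KO 2. BMP2 lost its call in KO 1 without either control 1 replicate or either KO 1 replicate (limma adjusted p 0.0607 to 0.153) and between the KO-labelled lines without either KO 1 replicate or KO 2 replicate 1 (limma adjusted p 0.0521 to 0.146). BMP8B lost its call in KO 2 without KO 2 replicate 1 (limma adjusted p = 0.0642) and between the KO-labelled lines without either control 1 replicate, either KO 1 replicate or either KO 2 replicate (limma adjusted p 0.0658 to 0.217), where BMP6 lost its call without KO 1 replicate 2 (limma adjusted p = 0.0861). ACVRL1 lost its call in KO 1 without control 1 replicate 1 or either KO 1 replicate (limma adjusted p 0.0508 to 0.175) and between the KO-labelled lines without either control 1 replicate, either KO 1 replicate or either KO 2 replicate (limma adjusted p 0.0672 to 0.266).

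Among the SMADs, SMAD9, a BMP receptor substrate, fell in both KO-labelled lines, with log2 differences of -0.93 (SE 0.18, limma adjusted p = 0.019) and -1.28 (SE 0.18, limma adjusted p = 0.00358), and was also lower in control 2 than in control 1, with a log2 difference of -0.98 (SE 0.20, limma adjusted p = 0.0486). In this group 2 of 6 genes were called in KO 1 (SMAD3 was higher, 0.66 (SE 0.15, limma adjusted p = 0.0403)) and 1 of 6 in KO 2, beside 7.01% and 11.2% of all genes. Of 10 tested intracellular inhibitors, 1 was called in each line, near those shares. PMEPA1, which binds SMADs and is induced by TGF-beta, fell in KO 2, with a log2 difference of -0.73 (SE 0.17, limma adjusted p = 0.0283). In KO 1 it was -0.65 (SE 0.17, limma adjusted p = 0.0566), with a limma adjusted p of 0.000948 under the replicate block. Under that block PMEPA1 was also called higher in control 2 than in control 1. Among 8 tested extracellular antagonists 1 was called in KO 1 (BMPER), also near the share of all genes. The 1 call in KO 2 was CHRD, given below as a description with no test. BMPER fell in KO 1, with a log2 difference of -1.78 (SE 0.38, limma adjusted p = 0.0282), but had only 9 and 16 reads there. BMPER was at 56.1 and 86.3 in control 1, 24.95 and 20.4 in control 2, 7.05 and 16.6 in KO 1, and 18.6 and 22.9 in KO 2. Control 1 was 3.14-fold above control 2, a difference that was called under the replicate block. CHRD, the BMP antagonist chordin, had 9 to 13 reads in each control library, 3 and 5 in those labelled KO 1 and 0 in both labelled KO 2, at least 3.17-fold lower than the controls when 3 reads per library are taken as the floor. CHRD passed the filter only through 2 control libraries, so this is a description with no test. None of 6 tested BMP targets was called in either line, and with the replicate block 1 was called in KO 1 (24.4% of all genes) and 3 in KO 2 (27.4%). SMAD9 lost its call in KO 1 without control 1 replicate 1 or either KO 1 replicate (limma adjusted p 0.0608 to 0.177) and between the control lines without either control 1 replicate, either control 2 replicate or either KO 1 replicate (limma adjusted p 0.0911 to 0.294). SMAD3 lost its call without either control 1 replicate, control 2 replicate 2 or either KO 1 replicate (limma adjusted p 0.0864 to 0.243). PMEPA1 lost its call without control 1 replicate 2, control 2 replicate 2, either KO 1 replicate or either KO 2 replicate (limma adjusted p 0.0512 to 0.105). BMPER lost its call without either control 1 replicate, either control 2 replicate or KO 1 replicate 1 (limma adjusted p 0.0504 to 0.217).

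**Figure D5:**
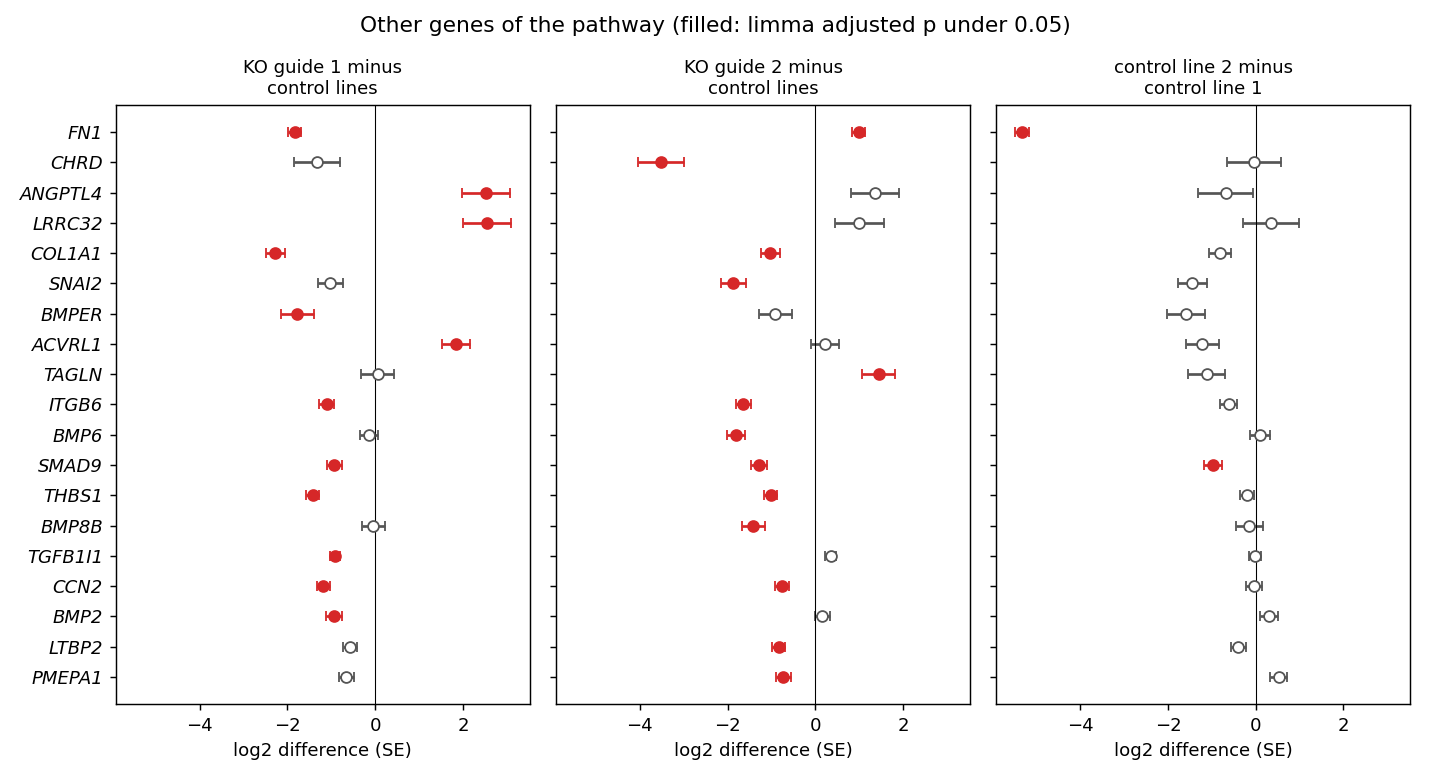
Log2 differences (points, with bars of 1 SE) of the other pathway genes named in the text by the range of their line means, in KO 1 and KO 2 against the control lines and between the control lines; filled red points have a limma adjusted p under 0.05. CCN2, COL1A1, ITGB6, SMAD9 and THBS1 are filled and below 0 in both KO-labelled lines, and FN1 is farthest from 0 between the control lines, at -5.32. LRRC32 and CHRD are drawn from the same fits but passed the filter only through the group where each was high, so their points are a description.

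The calls of FN1, SNAI2, LTBP2, THBS1 in each line, COL1A1 in KO 1, ITGB6, SMAD9 and BMP6 in KO 2, and TGFB1I1 between the KO-labelled lines passed in all 8 fits without 1 library.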

How the data were processed

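Polyadenylated RNA was sequenced from 8 libraries, 2 of each of 4 lines, grouped by the labels. The submitters' processing notes name fastp 0.23.2, HISAT2 2.2.1, featureCounts 2.0.1 and DESeq2 2.11.40.8 and the build GRCh38 (hg38); annotation and strand use are not given in the sources used here. The authors deposited a normalized signal, 1 column per library with no pooling: every value was a whole number of reads times 1 factor of its library (100% of nonzero values, relative tolerance 1e-06), so whole reads were recovered. Symbols came from RefSeq (27745 of 28395 identifiers).

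Tests used limma 3.58.1 in R 4.3.3 (lmFit, eBayes with trend) on log2(value + 1) for the 14040 genes that reached a value of 10 in 2 or more libraries, with Benjamini-Hochberg adjustment over all of them. KO against control kept the line as a random effect (duplicateCorrelation, 0.33); lines were compared in a model that fitted each line's mean, KO 1 and KO 2 each against the mean of the 2 control lines. Scripts were tested on simulated data. Alternatives were the pseudocount (0.1 and 10), the filter, TMM scaling, equal totals, a replicate block, edgeR 4.0.16 and DESeq2 1.42.0 on recovered reads, a separate mean per line, line means, and leaving out each library, after which its line has 1 library assumed to vary like the others. The replicate numbers, from the sample titles, were taken to pair the libraries, because the differences of replicate 2 from replicate 1 correlated across genes in all 6 pairs of lines (Pearson's r 0.285 to 0.501, limit 0.1). Replicates were not repeats of 1 library (chi-square of 18.1 to 70.6 per degree of freedom). Counting limits cover counting error only.

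The members and the lists of genes were chosen with earlier results of these data known. Of the pathway list, up to 20 genes called in at least 1 of 5 comparisons were named, by the range of line means, and 1 of them is not reported here, though the counts over the list include it; SMAD3, BMPR2 and INHBB were chosen after their values were seen.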

Additional observations from a re-analysis of the deposited data

Results flagged for a closer look

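SMAD7 had 1 control library apart from the other 3: control 1 replicate 2 was at 821.6, and the gap to the next exceeded the limit of Dixon's test. This was 1 flag in 20 groups of 4 libraries examined, and chance flags about 1 group in 20. TGFBR1 and SKIL differed between the 2 KO-labelled lines, with log2 differences of KO 2 minus KO 1 of -0.94 (limma adjusted p = 0.0222) and -1.0 (limma adjusted p = 0.0141), each lower in both KO 2 libraries than in both KO 1 libraries.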

How the results depend on the processing

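Over 1024 values of the members recomputed under the alternatives, 927 kept their direction and side of the threshold, 29 gained a call, 39 lost one and 29 changed sign. Between all KO-labelled and all control libraries, 2 members were called by edgeR (10.5% of all genes), 4 by DESeq2 (12.6%) and 2 with a separate mean per line (10.5%), beside 0. In KO 1 DESeq2 called 2 (10.3%). With the replicate block, which pairs the libraries by number, the calls were 4 in KO 1 (24.4% of all genes), 8 in KO 2 (27.4%), 4 between the control lines (12.5%) and 4 for KO 2 minus KO 1 (24.5%), and it changed no call of KO against control. Leaving out each library gave 0 to 2 calls in KO 1 (1.06 to 9.51% of all genes), 0 to 3 in KO 2 (5.83 to 9.74%), 0 to 2 between the control lines (0.308 to 2.95%), 0 to 2 for KO 2 minus KO 1 (0.623 to 7.15%) and 1 to 3 between replicates (5.05 to 16.5%). The cause was not tested.

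Some differences changed sign. TGFBR2 between replicates was -0.0011 with TMM scaling and -0.074 with equal totals, and INHBA between the KO-labelled lines was 0.060 in edgeR and 0.074 in DESeq2. Without 1 library, the log2 difference ranged from -0.12 to 0.12 for TGFBR2 between the arms, from -0.12 to 0.34 for TGFBR1 and -0.020 to 0.20 for SMAD7 in KO 1, from -0.45 to 0.014 for BMP4 in KO 2, and from -0.35 to 0.028 for SMAD7 between the control lines. Between the KO-labelled lines it ranged from -0.059 to 0.22 for TGFB1, -0.032 to 0.46 for TGFB2, -1.18 to 0.76 for INHBA and -0.55 to 0.30 for ID1. Between replicates it ranged from -0.076 to 0.29 for BMP4, -0.060 to 0.13 for TGFBR2, -0.022 to 0.18 for SMAD7 and -0.065 to 0.091 for TGFBI. TGFB1 between replicates passed with equal totals (limma adjusted p = 0.0235).

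For the called pathway genes, no value changed sign; CHRD and LRRC32 each fell below the filter in 2 of the 8 fits without 1 library and had no value there. The 2 calls between the KO-labelled lines of ACVRL1 (limma adjusted p = 0.0698) and BMP8B (0.067), the KO 2 call of TAGLN (0.0692), the KO 1 call of SMAD3 (0.0539) and the control call of SMAD9 (0.0697) were lost with no filter. SMAD9 was also lost with the stricter filter (limma adjusted p = 0.0523) and equal totals (0.0601), SMAD3 with equal totals (0.0702), and THBS1 over both arms when line means were tested (limma adjusted p = 0.511). BMP4 had too few reads for the stricter filter, which gave it no value, and its 9 to 29 reads per library limit its precision.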
